A study of Mus musculus with 4 samples.

Results

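The genes described here are 10 regulators of developmental timing: the RNA-binding protein genes Lin28a and Lin28b, the chromatin protein genes Hmga1 and Hmga2, the mRNA-binding protein genes Igf2bp1, Igf2bp2 and Igf2bp3, the ubiquitin ligase gene Trim71, and the DNA-binding protein genes Arid3a and Arid3b. They are a family of known let-7 pathway genes taken by symbol, with no cutoff on their values but with earlier results of these data known, and all 10 were found among the 41388 genes of the files. RNA was sequenced from EGFP-positive cells sorted from mouse dorsal root ganglia of the lower thoracic to sacral levels, in 4 libraries of 1 animal each. The genotype label of every library was Tg(Ret-EGFP)SJ/ on C57BL/6, whereas the series text describes heterozygotes with EGFP inserted at the Ret locus, so every animal carried the reporter. Every library was labelled postnatal day 2 (P2). The label of the pool, however, named a P2 mouse in male A (20 ganglia) and female A (40 ganglia), but an embryo in male B (20 ganglia) and likewise in male C (20 ganglia). The pairs are called the P2-mouse pair and the embryo pair here, as names of these labels only. No library of a labelled embryonic age, of an adult or of unsorted ganglia was used.

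Lin28a and Lin28b block the maturation of the let-7 microRNAs, which accumulate as embryonic tissues mature. The let-7 microRNAs in turn repress Lin28b, Hmga2, Igf2bp1, Igf2bp2, Igf2bp3, Trim71, Arid3a and Arid3b, which are known as embryonic genes that are silenced around birth in many tissues. In sensory neurons, Igf2bp1 (also called ZBP1) is known for carrying the mRNAs of beta-actin and Gap43 into growing axons.

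The let-7 family shares a seed, the bases 2 to 8 that pair with a target, which is why its members recognise the same sites. Of the 11 mature let-7 and miR-98 names in RefSeq (GRCm38.p6), 10 carry the seed GAGGUAG, from 12 gene copies found there. The copies counted do not include Mirlet7a-2, a let-7 precursor gene of the files. Examples are shown with the seed in capitals.
let-7a-5p: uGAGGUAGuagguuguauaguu
let-7g-5p: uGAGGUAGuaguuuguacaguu
let-7i-5p: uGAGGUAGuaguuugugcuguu
miR-98-5p: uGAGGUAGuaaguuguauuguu

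The letters that pair with this seed, CTACCTC on the mRNA strand, were looked for in the longest annotated 3′ UTR of each gene (GENCODE M21, GRCm38). All 10 genes held at least 1 match, against 10.1% of the 20698 3′ UTRs of the genes in the files. Most of the 10 are known let-7 targets, so this describes how the group is known rather than a result of these libraries. Lin28b, Hmga2, Igf2bp1 and Trim71 held 4 matches each, and they make up 4 of the 12 genes with 4 or more. Lin28a and Arid3a held 2, and Hmga1, Igf2bp2, Igf2bp3 and Arid3b held 1. Among 3′ UTRs within 25% of the same length, the gene's own included, 4 or more matches were found in 0.123% for the length of Hmga2. For that of Trim71 the share was 0.445%. At least 1 match was found in 12.5% for the length of Igf2bp2. Sites of the 4 genes that differed between the pairs, and of Trim71, whose 4 matches are all of 8 letters, are shown with the match in capitals, and a final capital A where the match extends to 8 letters. They are written 5′ to 3′ on the mRNA strand, and each lies within 1 exon, in the 3′ UTR.
Igf2bp2, chr16:22059462-22059491, minus strand: acaaataaaagCTACCTCAggtgtttttta
Igf2bp3, chr6:49086776-49086805, minus strand: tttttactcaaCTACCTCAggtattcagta
Hmga2, chr10:120364213-120364242, minus strand: acattcaatttCTACCTCAgcatcagttgg
Hmga2, chr10:120361680-120361709, minus strand: aaaacacactaCTACCTCttaagtcccagt
Lin28b, chr10:45381011-45381040, minus strand: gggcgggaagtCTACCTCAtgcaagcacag
Trim71, chr9:114509036-114509065, minus strand: gtatggattttCTACCTCAattttggcaaa
A match of letters is not a measured site, and mature microRNAs were not measured in these libraries.

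**Figure D1:**
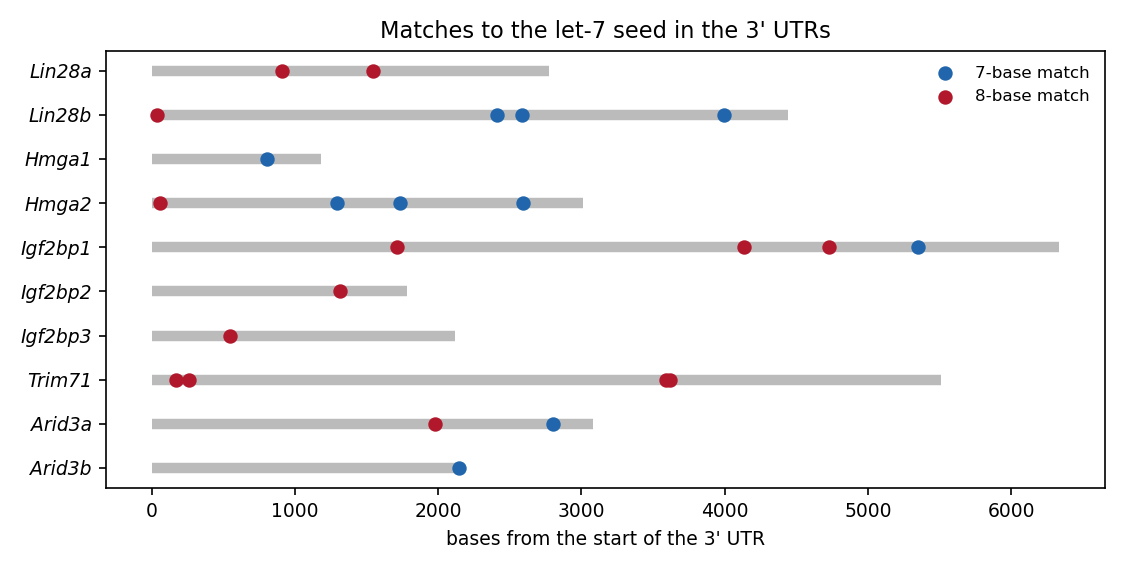
Positions of the let-7 seed matches (points, red for 8-base and blue for 7-base matches) along the longest annotated 3′ UTR of each gene (grey bars), in bases from its start. Trim71 holds 4 matches of 8 bases and Arid3b 1 match of 7 bases close to its end.

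The libraries held between 17388493 and 28066448 gene counts, so that 3 counts, the limit a count of 0 allows, came to between 0.107 and 0.173 CPM (a gene's counts scaled to the library's total). The markers of sensory neurons, led by Tubb3, summed to between 8048 and 8528 CPM in the P2-mouse pair and between 12670 and 13426 CPM in the embryo pair (1 of 10 called higher and 6 lower). Markers of other cells were present and differed between the pairs. The 10 fibroblast markers, led by Col1a2, summed to between 1556 and 1703 CPM in the P2-mouse pair and between 367 and 383 CPM in the embryo pair, and 6 of 9 tested were called higher in the P2-mouse pair and 1 lower. The 10 Schwann cell markers, led by Pmp22, summed to between 5022 and 7985 CPM and between 3034 and 3072 CPM, and 9 of 10 were called higher. Satellite glia markers, led by Ednrb, summed to between 1022 and 1108 CPM and between 559 and 915 CPM, with 4 of 7 called higher and 2 lower. Erythroid markers, led by Hbb-bs, summed to between 44.1 and 56.9 CPM and between 5.26 and 16.9 CPM (3 of 5 tested called higher), with Slc4a1 at 0 in at least 1 library. Endothelial markers, led by Pecam1, summed to between 9.55 and 21.4 CPM and between 4.34 and 5.56 CPM (5 of 6 tested called higher), with Tek at 0 in at least 1 library. Macrophage markers, led by C1qb, stayed at 5.29 CPM or less in every library, with C1qa and Adgre1 at 0 in at least 1. The part of these cells in the differences below was not tested. In pooled cells, fewer cells of a type and less RNA per cell cannot be told apart.

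The 10 genes were expressed at low levels, and Igf2bp2 stood first in every library. On the RPKM scale (CPM per kilobase of exon, on which genes can be compared) Igf2bp2 stood at 3.98 ± 3.11 over all libraries (SD, n = 4). Igf2bp3 followed at 1.39 ± 0.745, Hmga1 at 0.980 ± 0.312, Lin28b at 0.770 ± 0.314, Hmga2 at 0.765 ± 0.629, Arid3a at 0.753 ± 0.161 and Arid3b at 0.745 ± 0.191 RPKM (SD, n = 4). From Hmga1 down to Arid3b, each gene differed from the next by less than the SD of either. Igf2bp1 at 0.108 ± 0.0551, Trim71 at 0.0491 ± 0.0316 and Lin28a, with a mean of 0.00720 RPKM, closed the order. The highest Igf2bp1 library (0.184 RPKM) lay below the lowest Arid3b library (0.470 RPKM). These means pool pairs that differ, and the order was another within each pair. In the P2-mouse pair, the mean levels were 6.58 RPKM for Igf2bp2, 2.03 for Igf2bp3, 1.29 for Hmga2, 1.03 for Lin28b, 0.809 for Arid3b, 0.737 for Hmga1 and 0.639 for Arid3a (n = 2). In the embryo pair they were 1.37 RPKM for Igf2bp2, 1.22 for Hmga1, 0.866 for Arid3a, 0.752 for Igf2bp3, 0.681 for Arid3b, 0.509 for Lin28b and 0.239 for Hmga2 (n = 2). Igf2bp2 was first and Igf2bp1 and Trim71 came after these 7 genes in both pairs.

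**Figure D2:**
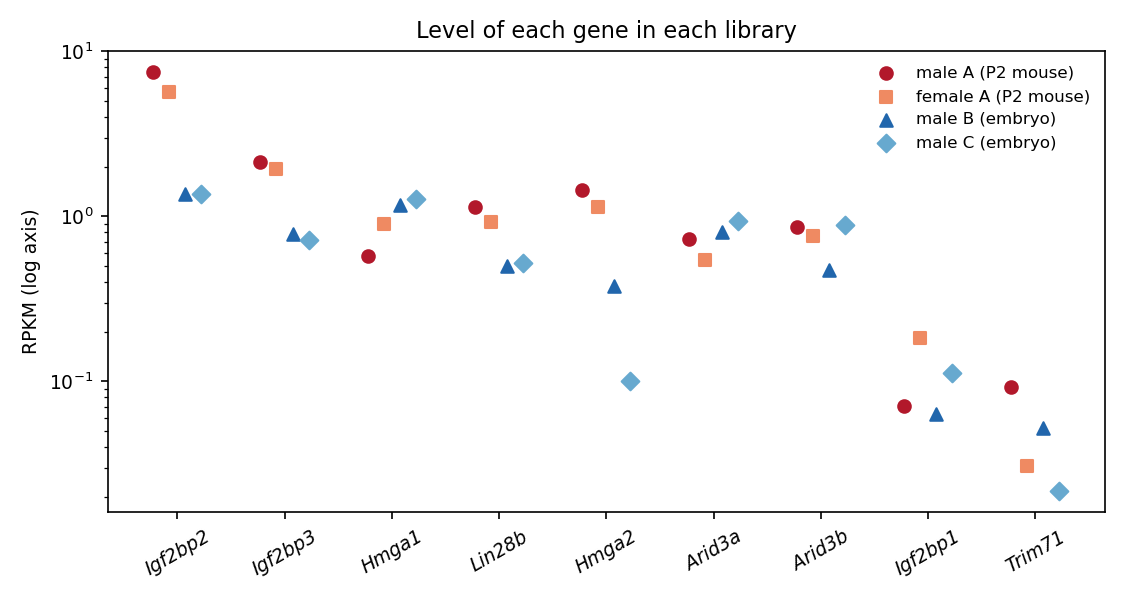
RPKM (log axis) of 9 genes in each library, P2-mouse pair in red and orange, embryo pair in blue. Lin28a is left out because it had 0 counts in 3 libraries. Both red and orange points lie above both blue points for Igf2bp2, Igf2bp3, Lin28b and Hmga2, and below them for Hmga1 and Arid3a.

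The pairs were compared to ask whether genes of developmental timing differ between libraries whose pools were labelled P2 mouse and embryo. Whether this label marks a difference in age, a batch or a slip of wording cannot be told from the labels and was not tested. Igf2bp2, Hmga2, Igf2bp3 and Lin28b were higher in the P2-mouse pair, by between 1.86-fold (Lin28b) and 5.01-fold (Hmga2). No member was called lower. Igf2bp1, Trim71, Arid3a, Arid3b and Hmga1 did not pass the test, and Lin28a was too low to be tested. The count of 4 higher and 0 lower among the 9 tested genes, by the quasi-likelihood test of edgeR at a Benjamini-Hochberg adjusted p of 0.05, stands beside 22.3% of all 15568 tested genes called higher and 20.0% called lower. Since 42.3% of all genes were called in either direction, the number of calls among these genes is close to that of genes at large. With sex as a term, Igf2bp2 and Igf2bp3 were called higher (2 of 9) and none lower, beside 13.3% and 10.4% of all genes (23.6% in either direction). DESeq2 called 3 higher and 0 lower, beside 19.7% and 18.8% (38.5%), and limma-voom 4 and 0, beside 22.9% and 20.1% (43.0%). Both P2-mouse libraries stood above both embryo libraries for 4 of the 9 tested genes, against 42.5% of all tested genes, and below them for 2, against 30.8%. The pairs thus did not overlap for 6 of 9, against 73.3% of all. The comparison rests on 2 libraries in each pair, and female A is in the P2-mouse pair only. With sex as a term, female A therefore drops out of the contrast, and male A alone is set against the embryo pair.

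**Figure D3:**
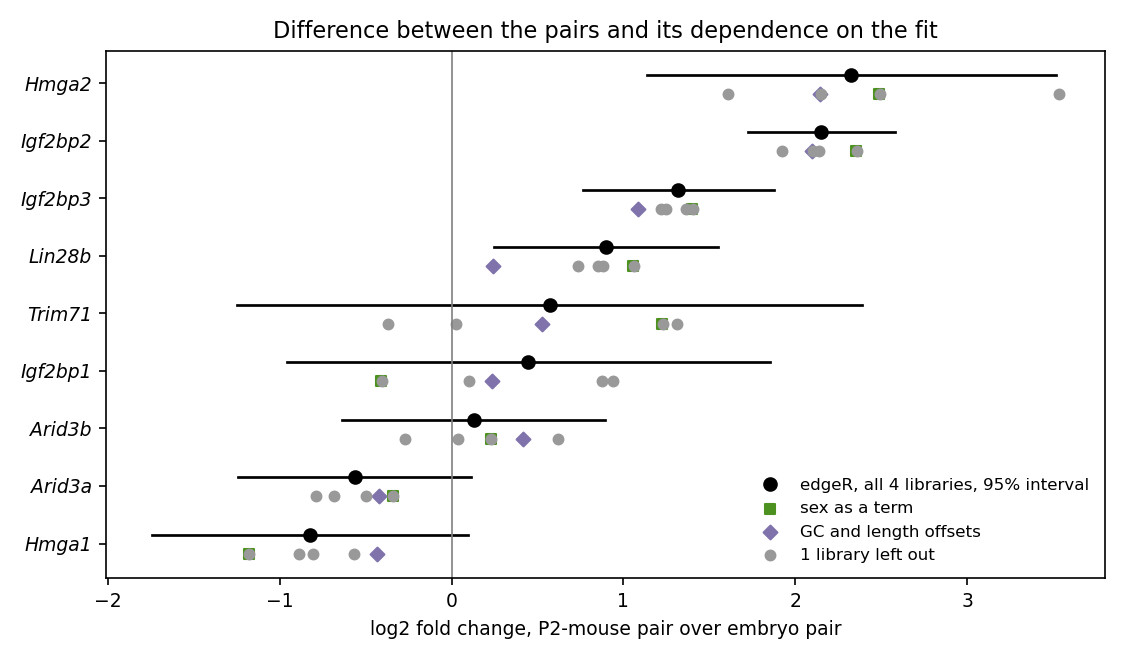
Log2 fold change of the P2-mouse pair over the embryo pair for the 9 tested genes, with 95% intervals from edgeR (black), and the value with sex as a term (green), with offsets for GC content and length (purple) and with each library left out (grey). Igf2bp2, Hmga2 and Igf2bp3 lie above 0 in every fit shown. Lin28b moves to 0.24 with the offsets.

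Igf2bp2 encodes an mRNA-binding protein of the IMP family that is also known for roles in metabolism and muscle, and it is the family member that persists longest after birth in many tissues. Its gene (ENSMUSG00000033581) lies on chromosome 16 from 22059009 to 22163299, minus strand. It stood at 53.7 CPM in male A and 40.2 in female A, against 9.75 in male B and 9.76 in male C. Both libraries of the P2-mouse pair were thus at least 4 times as high as either embryo library, and the embryo libraries were nearly equal. The log2 fold change was 2.15 (SE 0.184, edgeR adjusted p = 0.000200). It was called in each of the 12 alternative fits, with sex as a term at 2.36 (edgeR adjusted p = 0.00771) and with offsets for GC content and length at 2.10 (edgeR adjusted p = 0.000530). Of the 3391 tested genes within 2 percentage points of its GC content, 98.1% had a lower fold change. Markers of Schwann cells and fibroblasts were higher in the same libraries, at the levels given above.

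Igf2bp3, a member of the same family known from fetal tissue, lies on chromosome 6 from 49085221 to 49214954, minus strand (ENSMUSG00000029814). It stood at 9.26 CPM in male A and 8.41 in female A, against 3.40 in male B and 3.13 in male C, so that the pairs did not overlap and each was tight. Its log2 fold change was 1.32 (SE 0.239, edgeR adjusted p = 0.00361), and 1.08 with the offsets for GC content and length (edgeR adjusted p = 0.0111). With the offsets and sex as a term together the call was lost (1.15, edgeR adjusted p = 0.0741). Exons of Malsu1, a mitochondrial ribosome assembly gene on the opposite strand, cover 35.2% of the exon bases of Igf2bp3. Malsu1 itself stood at 7.25 CPM in male A and 10.8 in female A, against 2.43 in male B and 1.93 in male C, with a log2 fold change of 1.94 (SE 0.301, edgeR adjusted p = 0.00178). No source used here gives the strand setting of the counting, so reads of these genes cannot be told apart where they overlap.

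Igf2bp1, the family member studied for mRNA transport in axons, was far lower. Its gene (ENSMUSG00000013415, chromosome 11, 95957163 to 96005940, minus strand) had 12 counts in male A and 50 in female A, against 14 in male B and 27 in male C. These came to 0.690, 1.78, 0.618 and 1.08 CPM, with a 95% exact Poisson interval of 0.357 to 1.21 in male A and 1.32 to 2.35 in female A. The libraries of each pair differed as much as the pairs did, and the pairs overlapped. The log2 fold change of 0.45 had a 95% interval from -0.96 to 1.85 (edgeR adjusted p = 0.588), which allows a difference in either direction. Without female A it stood at -0.40. Intervals from counts cover counting error only and leave out the spread between animals. The libraries carried no molecular identifiers, so the intervals may be too narrow even for counting error.

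Hmga2 encodes a small chromatin protein that bends AT-rich DNA and is known for sustaining fetal stem cells. The gene (ENSMUSG00000056758) lies on chromosome 10 from 120361275 to 120476469, minus strand. It stood at 9.72 CPM in male A and 7.77 in female A, against 2.56 in male B and 0.683 in male C. The P2-mouse libraries were close to each other, whereas male C, with 17 counts, lay below male B, with 58, and their 95% exact Poisson intervals (0.398 to 1.09 and 1.94 to 3.31 CPM) did not overlap. The log2 fold change was 2.33 (SE 0.511, edgeR adjusted p = 0.00846). Its size rested on which embryo library was used, at 3.54 without male B and 1.61 without male C, both called. The call was lost without male A (2.15, edgeR adjusted p = 0.0695) and with sex as a term (2.49, edgeR adjusted p = 0.0553).

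Hmga1, the relative of Hmga2 that is broadly expressed in dividing cells, lay the other way without passing the test. Its gene (ENSMUSG00000046711, chromosome 17, 27556620 to 27563674, plus strand) stood at 1.15 CPM in male A and 1.78 in female A, against 2.34 in male B and 2.53 in male C. Both P2-mouse libraries were below both embryo libraries. Its log2 fold change of -0.83 had a 95% interval from -1.74 to 0.09 (edgeR adjusted p = 0.131). Of the 50-base words in its annotated transcripts, 55.0% also occur in Hmga1b or AI413582. Hmga1b, a copy of Hmga1, had at most 1 count in any library. AI413582, on the opposite strand, shares 100 exon bases with Hmga1 and stood at 72.4 and 78.6 CPM in the P2-mouse pair and 131 and 119 CPM in the embryo pair, so the counts of Hmga1 are uncertain.

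Of the upstream pair, only Lin28b was measurable. Lin28b (ENSMUSG00000063804, chromosome 10, 45376620 to 45470201, minus strand) stood at 6.15 CPM in male A and 4.99 in female A, against 2.69 in male B and 2.81 in male C. Both P2-mouse libraries were above both embryo libraries. At a log2 fold change of 0.90 it was called higher (SE 0.280, edgeR adjusted p = 0.0349). This call was lost when any of the 4 libraries was left out (edgeR adjusted p between 0.0629 and 0.198), with sex as a term (1.06, edgeR adjusted p = 0.0842) and with DESeq2 (0.88, adjusted p = 0.0831). With the offsets for GC content and length the value was 0.24 (SE 0.272, edgeR adjusted p = 0.538). Among the 1826 tested genes within 2 percentage points of its GC content (40.6%), the median log2 fold change was 0.64.

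Lin28a (ENSMUSG00000050966, chromosome 4, 134003330 to 134018841, minus strand), the paralog best known from pluripotent cells, had 2 counts in male A and 0 in the other libraries. The 2 counts came to 0.115 CPM (95% exact Poisson interval 0.0139 to 0.415). Where the count was 0, the limit of 3 counts came to 0.107 CPM in female A, 0.120 CPM in male C and 0.132 CPM in male B. The upper ends of the exact Poisson interval were 0.131, 0.148 and 0.163 CPM in the same libraries. No difference was detectable at this depth.

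Trim71, the ortholog of the worm timing gene lin-41, encodes a ubiquitin ligase that also represses mRNAs, and it was close to the limit of detection. Its gene (ENSMUSG00000079259, chromosome 9, 114507133 to 114564369, minus strand) had 15 counts in male A and 8 in female A, against 11 in male B and 5 in male C, or 0.863, 0.285, 0.485 and 0.201 CPM. The pairs overlapped, and the spread within each was as wide as that between them. The log2 fold change of 0.57 had a 95% interval from -1.25 to 2.39 (edgeR adjusted p = 0.593), and it stood at -0.37 without male A.

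Arid3a and Arid3b encode DNA-binding proteins of the ARID family, known from B cells and from the embryo respectively. Arid3a (ENSMUSG00000019564, chromosome 10, 79927043 to 79955018, plus strand) stood at 4.08 CPM in male A and 3.03 in female A, against 4.46 in male B and 5.18 in male C. Both P2-mouse libraries were below both embryo libraries, but the log2 fold change of -0.56 did not pass the test (95% interval -1.24 to 0.11, edgeR adjusted p = 0.158). Arid3b (ENSMUSG00000004661, chromosome 9, 57790353 to 57836793, minus strand) stood at 6.84 CPM in male A and 6.06 in female A, against 3.75 in male B and 7.11 in male C. Male B alone was low, and the pairs overlapped. Its log2 fold change of 0.13 had a 95% interval from -0.64 to 0.90 (edgeR adjusted p = 0.784) and was -0.27 without male B.

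The sexes could be set side by side in the P2-mouse pair, as 1 library each and with no test. Female A pooled 40 ganglia and male A 20, so sex cannot be told apart from pool size or from the animal here. The log2 ratio of female A to male A was 1.37 for Igf2bp1, 0.63 for Hmga1 and -1.60 for Trim71, which had 8 and 15 counts. For Igf2bp2, Igf2bp3, Hmga2, Lin28b, Arid3a and Arid3b it lay between -0.43 and -0.14. The ratio of male C to male B, both of 1 sex and 1 label, reached -1.91 for Hmga2 and 0.92 for Arid3b, so distances of this size also occurred between libraries of 1 group.

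Differences between the pairs ran with base composition across all genes. With the genes in 10 groups of equal size by GC content, the median log2 fold change was 0.76 in the lowest group and -0.38 in the highest, and over 15474 genes, which are not independent, Spearman's rho was -0.444. Igf2bp2 (GC 49.7%), Hmga2 (45.7%) and Igf2bp3 (45.7%) lay above 98.1%, 97.7% and 90.3% of genes within 2 percentage points of their own GC content. Lin28b lay above 62.8% of such genes. Hmga1 (61.4%) and Arid3a (54.1%) lay above 22.8% and 37.3%, where the medians were -0.39 and -0.35. With the offsets for GC content and length, 3 of the 9 genes were called higher and 0 lower, beside 16.0% and 16.6% of all genes (32.6% in either direction).

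**Figure D4:**
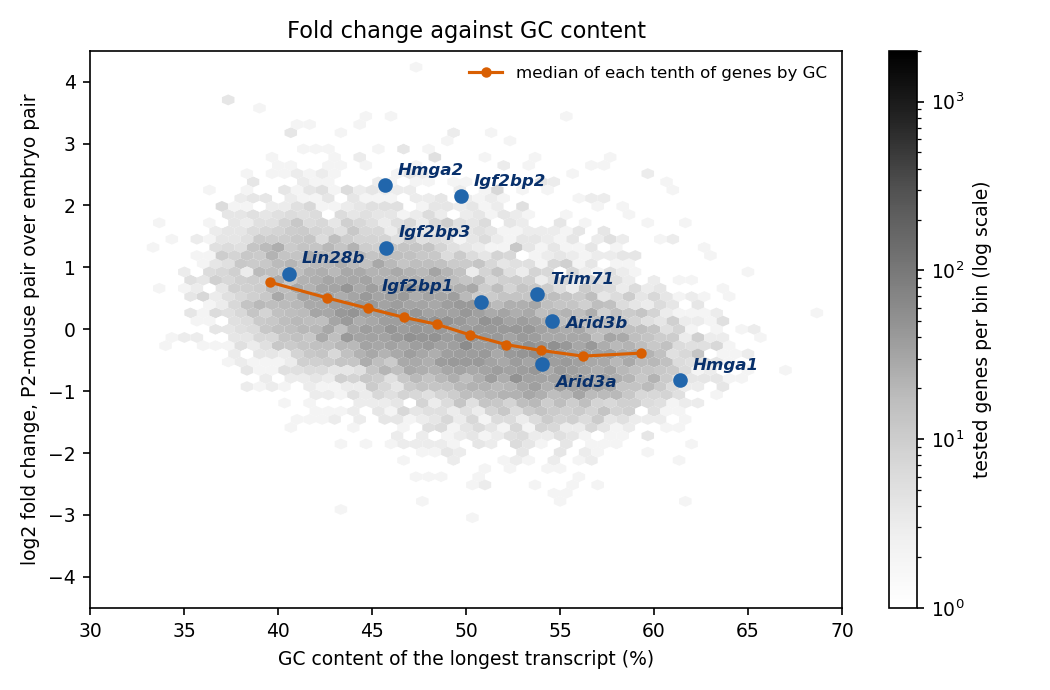
Log2 fold change of the P2-mouse pair over the embryo pair against the GC content (%) of the longest transcript, with tested genes binned in grey, medians of equal-sized groups of genes by GC content in orange and the members in blue. Lin28b lies near the orange line and Hmga1 below its right end, while Hmga2, Igf2bp2 and Igf2bp3 lie well above it. A further 49 genes fall outside the axes.

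Lin28 acts on let-7 through the enzymes that cut, tail and degrade the precursor. Of the 13 tested genes for the making and decay of let-7, 5 were higher in the P2-mouse pair and 1 lower, beside 22.3% and 20.0% of all tested genes. Their median log2 fold change was 0.08, against 0.02 over all tested genes. Tut4 and Tut7, the terminal uridylyl transferases that tail the let-7 precursor when Lin28 is bound, were both higher. Tut4 stood at 21.2 CPM in male A and 23.7 in female A, against 7.94 in male B and 8.47 in male C, with a log2 fold change of 1.34 (SE 0.173, edgeR adjusted p = 0.000819). Tut7 stood at 39.9, 38.5, 15.9 and 20.1 CPM in the same order, with a log2 fold change of 1.01 (SE 0.160, edgeR adjusted p = 0.00197). Neither gene overlapped between the pairs, and both were still called with the offsets for GC content and length (0.73 and 0.62). On the log2 scale, Dicer1, which makes the final cut, was higher by 0.97 (edgeR adjusted p = 0.00468) and the Argonaute gene Ago1 by 0.70 (edgeR adjusted p = 0.0130). Prkra, a partner of Dicer, was lower at -0.32 (edgeR adjusted p = 0.0414), a call lost with the offsets (-0.19, edgeR adjusted p = 0.196). With the offsets 5 genes of the list were higher and 1 lower, beside 16.0% and 16.6% of all genes. The lower gene was then Dis3l2, at -0.85 (edgeR adjusted p = 0.00163), against -0.18 without the offsets (edgeR adjusted p = 0.240). Ago2, the most abundant gene of the list at a mean of 113 CPM, had a log2 fold change of 0.44 (edgeR adjusted p = 0.0531).

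The precursors of let-7 were hardly seen. The 10 let-7 and miR-98 genes in the files had at most 2 counts in any library and 15 in all. Of their 3 tested host transcripts, Mir99ahg, which hosts let-7c-1, was higher by 1.08 on the log2 scale (edgeR adjusted p = 0.0120) and Huwe1, a ubiquitin ligase gene that hosts let-7f-2 and miR-98, by 0.75 (edgeR adjusted p = 0.000703). Wdr82, which hosts let-7g, stood at 0.17 (edgeR adjusted p = 0.437). With the offsets Mir99ahg was not called (0.59, edgeR adjusted p = 0.0956).

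Other genes known as let-7 targets were called higher more often than lower. Of 26 tested, 14 were higher in the P2-mouse pair and 3 lower, beside 22.3% and 20.0% of all tested genes, with a median log2 fold change of 0.72 against 0.02. The list was fixed with earlier results of these data known, and 20 of its 28 genes held a seed match. On the log2 scale, Fign, a microtubule-severing enzyme gene, was higher by 2.57 (edgeR adjusted p = 0.000136), at 46.5 and 42.6 CPM in the P2-mouse pair and 6.18 and 7.67 CPM in the embryo pair. The TGF-beta receptor gene Tgfbr1 was higher by 2.06 (edgeR adjusted p = 0.000134), the cyclin gene Ccnd1 by 1.84 (edgeR adjusted p = 0.00127) and the zinc finger gene Plagl2 by 1.63 (edgeR adjusted p = 0.00214). All 4 were still called with the offsets for GC content and length. Hras (-0.85), the growth factor receptor gene Igf1r (-0.60) and Nras (-0.27), the most abundant of the list at a mean of 1463 CPM, were lower. With the offsets 9 were higher and 3 lower, beside 16.0% and 16.6% of all genes, and the median was 0.37.

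Genes with a seed match as a whole did not stand far from other genes. Leaving out the 10 members, 26.1% of the 1627 tested genes with a match in the longest 3′ UTR were called higher and 19.5% lower, with a median of 0.05. Among the 12071 without one, 22.9% were higher and 22.1% lower, with a median of -0.01. Genes with a match had longer 3′ UTRs (median 2493 against 1261 bases). With the offsets for GC content and length, 15.1% of the genes with a match were higher and 20.0% lower, against 16.7% and 17.9% of those without one, and the medians were -0.03 and 0.02. In the 27 genes with 3 or more matches, 33.3% were higher and 3.70% lower, with a median of 0.34. With the offsets this balance of calls turned, to 7.41% higher and 18.5% lower, with a median of 0.17.

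Of 9 tested mRNAs that Igf2bp proteins are known to bind, 1 was higher and 2 lower, beside 22.3% and 20.0% of all tested genes, with a median log2 fold change of -0.24. Actb stood at a mean of 9769 CPM and was lower at -0.39 (edgeR adjusted p = 0.00519), and Gap43, the growth cone protein gene, at a mean of 1642 CPM and -0.56 (edgeR adjusted p = 0.00171). With the offsets Actb (-0.07) was not called and Gap43 was (-0.27).

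Log2 fold changes of relatives of the members are given in brackets. Of 21 tested genes of the HMG, ARID, TRIM-NHL and cold-shock families, 6 were higher and 4 lower, close to the 22.3% and 20.0% of all tested genes, with a median of 0.16. Arid4b (1.68), Hmgn1 (1.34), Arid2 (1.14) and Arid4a (1.06) were higher, while Csdc2 (-0.79), Trim3 (-0.66), Trim32 (-0.47) and Arid1b (-0.45) were lower. Trim2, a neuronal ubiquitin ligase gene, was higher by 0.51. With the offsets for GC content and length the calls of Trim2 (0.01), Hmgn1 (1.37), Trim3 (-0.24) and Trim32 (-0.22) were lost (edgeR adjusted p between 0.0581 and 0.928). Hmgn1 stood at 5.69 CPM in male B and 20.0 CPM in male C, against 36.8 CPM in male A, the higher of the P2-mouse pair. Among 10 cell cycle genes, 3 were called higher and 1 lower, beside the same 22.3% and 20.0%. Mki67 (1.58), Ccna2 (1.15) and Top2a (0.92) were higher and Cdk1 (-0.63) lower, while Pcna (-0.15) and Mcm6 (0.55) were not called. Mcm6, a DNA replication gene, stood at 11.2 CPM in male B and between 43.7 and 49.6 CPM in the other libraries. Mki67, a marker of dividing cells, was at 4.26 CPM or less in every library.

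**Figure D5:**
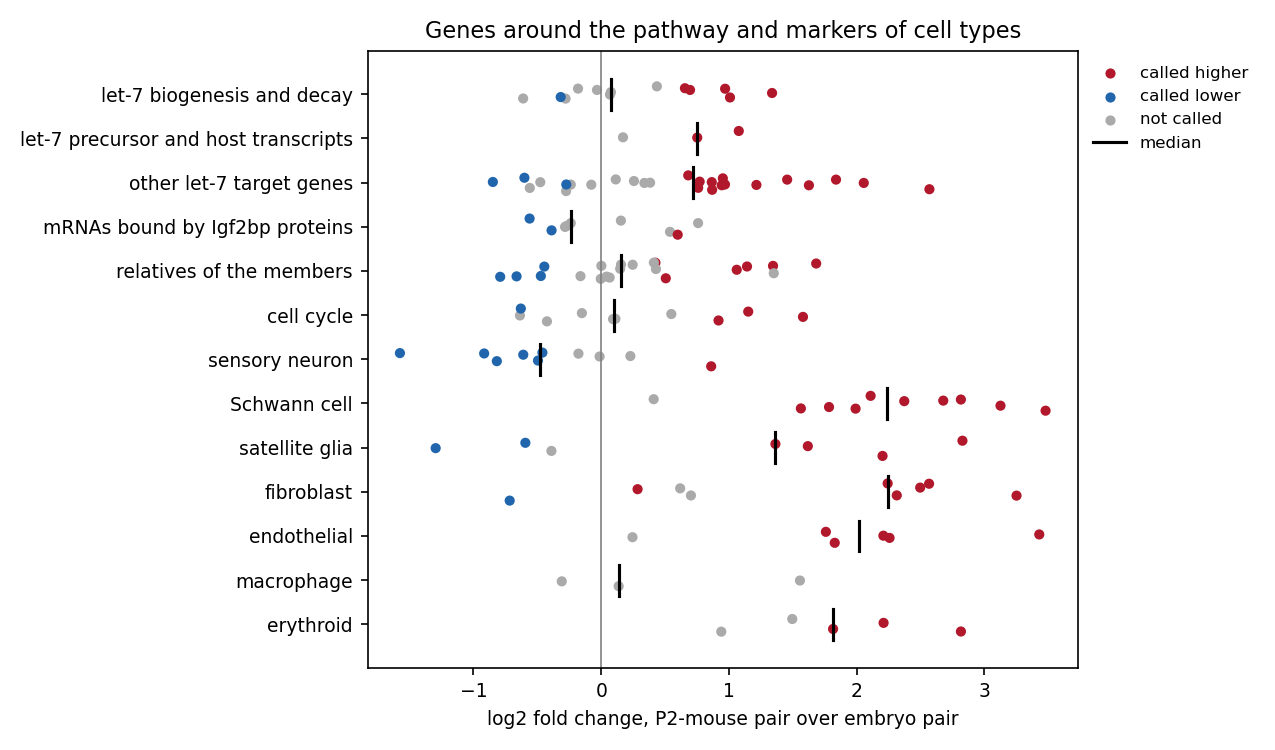
Log2 fold change of the P2-mouse pair over the embryo pair for each tested gene (points) of the 6 lists around the pathway and of the 7 lists of cell type markers, coloured by edgeR's call, with the median of each list (black bar). Other let-7 targets centre at 0.72, the making and decay of let-7 at 0.08, Schwann cell markers at 2.24 and fibroblast markers at 2.24.

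The genes whose profile over the 4 libraries was closest to that of Igf2bp2, among 10420 genes with a mean of at least 5 CPM, were Dusp16, Lgr5 and Cep295. Their Euclidean distances between centred log2(CPM + 0.5) profiles were 0.112, 0.125 and 0.127. Dusp16, a phosphatase gene acting on MAP kinases, stood at 35.6 CPM in male A and 25.8 in female A, against 5.91 in male B and 5.66 in male C. The distance was taken over 4 libraries only.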

How the data were processed

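Per the submitters' processing notes, featureCounts 1.4.5 (Subread) and GRCm38.p2 were used, and each deposited count is the number of reads given to a gene. The deposited CPM values scale a library's gene counts to a fixed total, and the deposited RPKM values are CPM per kilobase of exon length, as recomputed here from the files. No source used here states the annotation release, the aligner, the use of strand or how multiply matching reads were handled. Symbols and 3′ UTRs came from GENCODE M21 (GRCm38), which gave a symbol to 40254 of 41388 genes. MicroRNAs came from RefSeq.

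The P2-mouse pair was compared with the embryo pair by edgeR 4.0.16 (quasi-likelihood F test, TMM factors between 0.961 and 1.05, filterByExpr with a minimum count of 10 and total of 15, Benjamini-Hochberg adjustment over all genes tested, called at 0.05) in R 4.3.3, with 2 residual degrees of freedom. The SE is the log2 fold change over the root of F, and it rests on a spread moderated across genes. Levels are the deposited values, unscaled. Alternatives were RLE factors, dropping the filter, keeping genes averaging 5 CPM or more, DESeq2 1.42.0, limma-voom (limma 3.58.1), sex as a term, offsets for GC content and length fitted per library with mgcv 1.9.3, both of the last together, and each library left out. The members and lists were chosen with earlier results of these data known. Named genes were the 10 members, and in each list the 2 most abundant genes and up to 4 called per direction with a mean of at least 1 CPM. For cell types it was the most abundant marker, and for likeness the 3 genes closest to the most abundant member. Malsu1, AI413582 and Hmga1b were added for their overlap or likeness in sequence, and Dis3l2 because it was called lower with the offsets. A few genes that the rule names are not reported here. The labels give 1 animal per library. The p-values set the difference between the pairs against the spread within the pairs, moderated across genes. In the P2-mouse pair that spread also holds the difference in sex and in the number of ganglia. The test was also tested on simulated data. It recovered 16.3% of changes of 1.5-fold, 63.3% of 2-fold, 84% of 4-fold and 98% of 8-fold. At each fold, 49 or 50 changed genes were tested. Among the 15187 genes in that fit, 23 unchanged genes were also called, so some of its calls were false. Small changes were thus often missed there, which also limits what a gene not called can show. Few genes were changed in the simulation, whereas 42.3% of all tested genes were called in these data. The shares recovered therefore need not hold for the fit reported here. Total gene counts were 17388493 in male A and 28066448 in female A, against 22668371 in male B and 24901520 in male C.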

Additional observations from a re-analysis of the deposited data

How the results depend on the processing

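Igf2bp2 kept its direction and its call in all 12 alternatives, and Igf2bp3 in all but the offsets for GC content and length with sex as a term. The genes called higher and lower were 2064 and 1615 with sex as a term, 791 and 773 with offsets and sex as a term, and 1935 to 3630 and 1681 to 3311 with 1 library left out. Without male A they were 1935 and 1681, and without female A 2204 and 1834. The members called higher were 2 with sex as a term, 1 with offsets and sex as a term, and 2 to 3 with 1 library left out (2 without male A). No member was called lower in any of these fits. Hmga2 with offsets and sex as a term stood at 2.29 and was not called. Igf2bp1 turned to -0.41 with sex as a term, to -0.58 with offsets and sex as a term, and ranged from -0.40 to 0.94 with 1 library left out. Trim71 ranged from -0.37 to 1.31 and Arid3b from -0.27 to 0.62. For the making and decay of let-7, 2 genes were higher and 0 lower with sex as a term. With the offsets, 1 host transcript and 9 other let-7 targets were higher, and 2 relatives lower. No cell cycle gene was lower with sex as a term, where the count was 0. Over the 6 lists together, 7 were lower with sex as a term, and 5 were higher and 4 lower with offsets and sex as a term. With 1 library left out, 4 to 12 were lower (4 without male A and 7 without female A). Fits with sex as a term or without a library have 1 residual degree of freedom, and a lone library is assumed to vary like the other pair. Sex as a term takes female A, the only female, out of the contrast. That fit is therefore not independent of the fit without female A, and Igf2bp2 stood at 2.36 in both. The cause of each change was not tested. By CPM in place of RPKM, 5 members changed their position by level. Under the filter of at least 5 CPM, Lin28b, Hmga1, Igf2bp1, Trim71 and Arid3a gave no value. No paired analysis was possible because the pairs share no sample letter in the labels. Depth limits Lin28a, Trim71 and Igf2bp1, which had 50 counts or fewer in every library.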
